A study of Glycine max with 23 samples.

Results

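The WRKY transcription factors of soybean (Glycine max) were followed across the compartments of a young seed, with whole seeds and young leaves beside them. The members are all the genes whose symbol is WRKY followed by a number and that a soybean probe set of the array names alone. There were 52 such genes of the 6031 genes named this way, with 103 probe sets of their own among the 37593 soybean probe sets, and each gene is described by its brightest probe set. The rule used names and overall brightness and no difference between groups. Of the 52 genes, 35 exceeded background throughout 1 or more groups and were tested, and 17 were not tested.

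All plants were of cv. Asgrow A3237, kept at 22 °C under days of 16 h light and 8 h dark, and no group carried a mutation or a treatment. Pods 1.3 to 2.0 cm long held seeds with heart-stage embryos, from which 8 compartments were cut by laser from sections 8 µm thick of ethanol- and acetic acid-fixed, paraffin-embedded seeds. They were the embryo proper, which becomes the plantlet, the suspensor, the stalk that holds and feeds the embryo, and the endosperm, the nutritive tissue around it, with 3 arrays each, and 5 regions of the maternal seed coat with 2 arrays each. The coat regions were the endothelium, the layer that faces the endosperm, the inner and the outer integument, the epidermis at the surface, and the hilum, where the seed joins the pod. Whole seeds of the same stage and young trifoliate leaves 1.5 to 2.5 cm long gave 2 arrays each and were extracted with another reagent than the captured tissue, so no captured group was tested against them. Every array started from 2 ng of total RNA, amplified before labelling. The labels call the replicates biological but do not tie them to plants, so the p-values reflect how far these samples scatter, which may be technical.

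Values are the deposited signals, scaled to about 500.1 on every array, and differences are on the log2(signal + 16) scale. A probe set was above background on an array when it was above the 95th percentile of the 23350 probe sets for Phytophthora sojae and Heterodera glycines, soybean pathogens whose sequences the same array carries. That level was 86.3 to 231.4 on 21 arrays, 420.1 on suspensor replicate 1 and 404.9 on endosperm replicate 1. The last 2 arrays also had the brightest bacterial spike controls, at 27849 and 18149 against at most 8979 elsewhere. Endosperm replicate 3 was cut with another microscope. Arrays of 1 group correlated with a median r of 0.928 over soybean probe sets, and arrays of different groups with 0.745. LEC1-A, a master regulator of embryo development, had group means of 4937 in the embryo proper and 11475 in the suspensor and at most 130.1 in the coat. Its endosperm mean was 1854. The other embryo markers listed were instead higher in the embryo proper than in the suspensor: H1 (7766 and 269.8), PHANa (9809 and 227.7) and WRI1B (1460 and 927.6). WRI1B was highest in the endosperm (1914). ANR1, an enzyme of proanthocyanidin synthesis that marks the endothelium in Arabidopsis, was brighter in the hilum (16146) and the epidermis (5317) than in the endothelium (3605). The 2 endothelium arrays lay far apart, with a sum of ANR1 and LAR1, the other marker listed with it, of 535.9 and 6820. The summed signal of 8 maternal coat markers, listed from earlier results of these samples, was 63610 to 225632 on coat arrays, 859 to 1225 in the embryo proper, 1157 to 3424 in the endosperm and 4956 to 11214 in the suspensor.

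WRKY proteins are a large family of plant transcription factors named after the conserved peptide of their DNA-binding domain, which holds a zinc finger and binds the W-box, a short element of many defence gene promoters. They are best known as regulators of immunity, of stress responses and of leaf senescence, and many act downstream of mitogen-activated protein kinases. In Arabidopsis some members also act in the seed: TTG2 in the seed coat, MINI3 in endosperm growth and WRKY2 in the polarity of the zygote, from which the suspensor arises. The numbers of the soybean genes do not correspond to those of Arabidopsis. Soybean WRKY54 raised salt and drought tolerance, and WRKY21 cold tolerance, when expressed in Arabidopsis, and WRKY27 acts in salt and drought tolerance of soybean. For the other members no role is stated here.

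The family was detected in every group. The number of members above background on every array of a group was 30 in leaf, 26 in whole seed, 22 in the hilum, 20 in the endothelium and in the epidermis, 19 in the suspensor and in the outer integument, 17 in the embryo proper, 16 in the inner integument and 14 in the endosperm. Of the 52 genes, 30 reached that level in at least 1 captured compartment. WRKY7, WRKY10, WRKY22, WRKY24, WRKY35, WRKY48 and WRKY52 did so in all 8. Another 7 did so in exactly 1, and WRKY6, WRKY8, WRKY9, WRKY36 and WRKY60 only in whole seed or leaf. Among the captured compartments, the share of the 52 genes detected ranged from 26.9% in the endosperm to 42.3% in the hilum, where the share of all soybean probe sets was 34.2% and 48.4%. Only in the suspensor was the share of the members the larger (36.5% against 31%). The members are brightest probe sets, whereas the share of all counts every probe set. WRKY2, WRKY5, WRKY21, WRKY30, WRKY46, WRKY62 and WRKY63 were above background on no array, and the other 10 untested members on at most 4.

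Most tested members differed between compartments. In an F test over the 8 captured groups, called where the adjusted p was below 0.05 and the range was 2-fold or more, 26 of the 35 tested members were called (74.3%, against 52.6% of all tested probe sets). The median distance between the highest and the lowest compartment was 3.28 on the log2 scale for the members and 2.10 for all tested probe sets. By the same test 25 of 46 bZIP genes, 21 of 45 MYB genes and 7 of 11 NAC genes, from 3 other families of plant transcription factors, were called. Of the 35 tested members, 7 had passed the filter through 1 group alone (WRKY56, WRKY34, WRKY32, WRKY6, WRKY8, WRKY9 and WRKY60): such a gene was tested only because it was high in that group. By the mean of log2 values, the highest captured compartment was the suspensor for 12 members, the endothelium for 6, the endosperm and the hilum for 4 each, the outer integument for 3, and the embryo proper, the epidermis and the inner integument for 2 each. Every array of that compartment was above background for 10 of the 12 in the suspensor, 4 of the 6 in the endothelium and 1 of the 2 in the embryo proper, and for all those of the other 5 compartments.

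**Figure D1:**
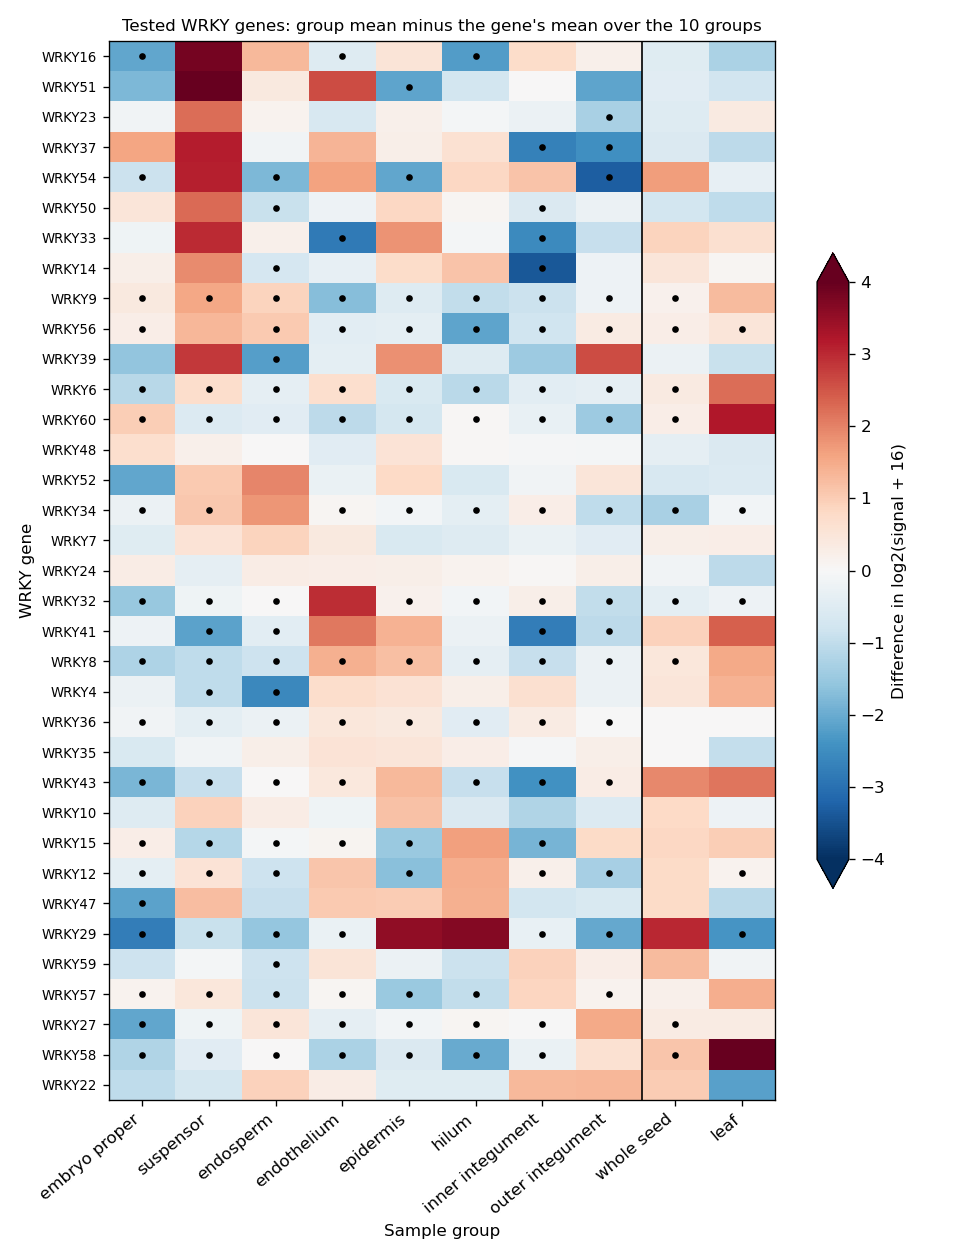
Group means of the 35 tested WRKY genes (rows) in the 10 groups (columns), as the difference in log2(signal + 16) from the gene's mean over the 10 groups. Red is above and blue below that mean, a black dot marks a group in which not every array was above background, and the vertical line separates the captured compartments from whole seed and leaf. The 12 genes at the top have their highest captured mean in the suspensor.

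Of the 8 compartments, the suspensor had the most members called. Against the mean of the other 7 captured compartments, 13 of the 35 tested members were higher there and 1 was lower, with a call needing an adjusted p below 0.05 and a 2-fold difference or more (40% called, against 23.6% of all tested probe sets; 9.87% of these were higher and 13.7% lower). The median difference was 0.76 on the log2 scale for the members and -0.10 for all tested probe sets. In the other families 4 of 46 bZIP genes were higher and 7 lower, 4 of 45 MYB genes higher and 6 lower, and 2 of 11 NAC genes higher and 1 lower. Taken 1 compartment at a time, the members higher in the suspensor numbered 14 against the embryo proper (10.4% of all tested probe sets), 10 against the endosperm (11.2%), 9 against the endothelium (8.42%), 8 against the epidermis (9.72%), 12 against the hilum (9.23%), 11 against the inner integument (13.4%) and 10 against the outer integument (9.34%). The comparisons of 1 compartment with the other 7 share arrays and are not independent of one another. The captured regions are pieces of tissue, in which fewer cells of a type and less RNA per cell cannot be told apart.

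**Figure D2:**
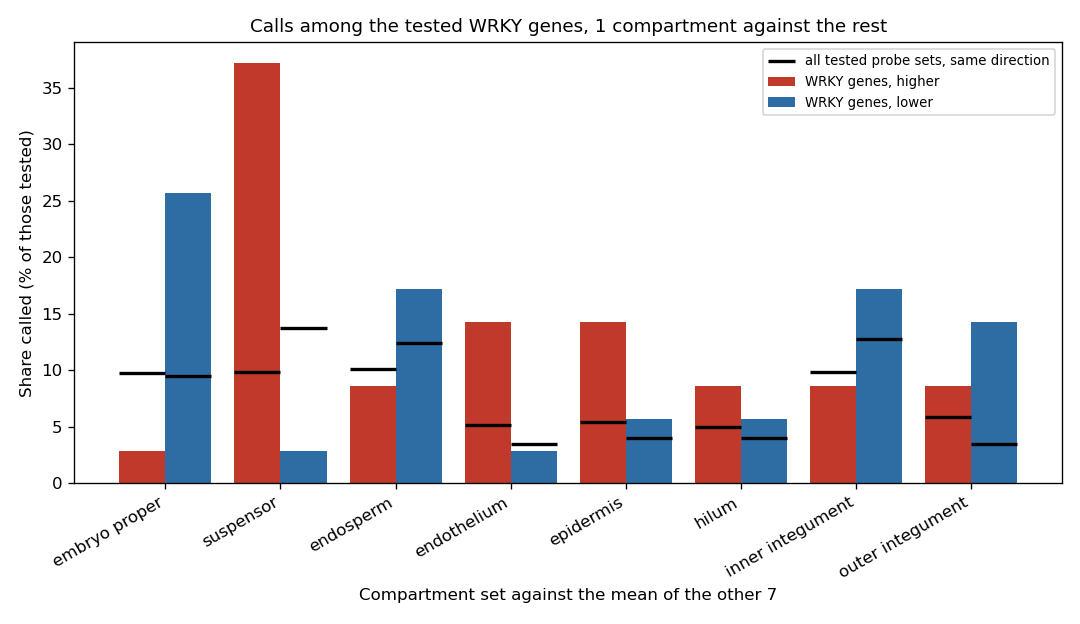
Share of the 35 tested WRKY genes called higher (red bars) or lower (blue bars) in each captured compartment than in the mean of the other 7, in percent of those tested. Black lines give the share of all 25686 tested probe sets called in the same direction. In the suspensor 37.1% of the WRKY genes were higher, against 9.87% of all, and in the embryo proper 2.86% were higher, against 9.77%.

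WRKY51 had the largest difference between the suspensor and the other compartments. Its suspensor arrays read 33835, 24648 and 39919, and its endothelium arrays 7439 and 5281. Every other array lay lower, between 107 and 2234 on the other 18 arrays, so that the suspensor overlapped with no group. The suspensor was 45.2-fold above the mean of the other 7 compartments (log2 difference 5.50 ± 0.33, adjusted p = 6.6e-11) and 5.12-fold above the endothelium, the next compartment (adjusted p = 0.0011). Over 33 alternative settings the log2 difference from the other 7 lay between 3.23 and 5.69. The call was kept in all of them, but the size of the fold depends on the setting. WRKY51 was also 6.99-fold higher in the endothelium than in the other 7 (adjusted p = 4.6e-05). With the mean of all WRKY51 probe sets this endothelium difference was 1.03 on the log2 scale (adjusted p = 0.11) and was not called. Of its other probe sets, 2 were tested, and both were called higher in the suspensor.

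WRKY16 followed, with 7089, 4206 and 3993 in the suspensor and 1947, 911 and 324 in the endosperm. On embryo proper arrays it read 6.3, 113 and 176, and on hilum arrays 52.6 and 61.7, both below the suspensor throughout. The suspensor was 17.6-fold above the other 7 (log2 difference 4.14 ± 0.56, adjusted p = 7.6e-06) and 5.79-fold above the endosperm (adjusted p = 0.014). WRKY23 read 2089, 1864 and 2153 in the suspensor and between 82.3 and 791 on the other 20 arrays, with no overlap. Its suspensor level was 5.77-fold above the other 7 (log2 difference 2.53 ± 0.35, adjusted p = 9.7e-06), and it was 4.12-fold above the epidermis, the next compartment (adjusted p = 0.005). Its second probe set was called higher in the suspensor as well.

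WRKY54, the gene tied to salt and drought tolerance, read 1522, 2287 and 2172 in the suspensor, 451 and 1001 in the endothelium and 639 and 367 in the inner integument. It was not above background on any array of the endosperm (31.3, 63.2 and 59.5), the epidermis (36.3 and 39.5) or the outer integument (8.1 and 5.8). The suspensor therefore stood at least 8-fold above the endosperm, at least 11-fold above the epidermis and at least 12.3-fold above the outer integument, and 2.87-fold above the endothelium (adjusted p = 0.04). Such a lower bound sets the bright group against the lowest signal that counts as above background where a dim group has no array above it. A mean over the other 7 compartments keeps the deposited values of dim groups, so a fold over it is a ratio of deposited values and not a bound. On that scale WRKY54 differed by 3.76 ± 0.36 (adjusted p = 5.2e-08). WRKY33 read 9878, 3159 and 4159 in the suspensor, above every array of the other groups, with 2433 and 1946 in the epidermis next. It was 12.5-fold above the other 7 (log2 difference 3.65 ± 0.55, adjusted p = 2.9e-05), while the gap to the epidermis alone, 2.32-fold, did not pass the threshold (adjusted p = 0.31). Its second probe set gave the same call in the suspensor.

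**Figure D3:**
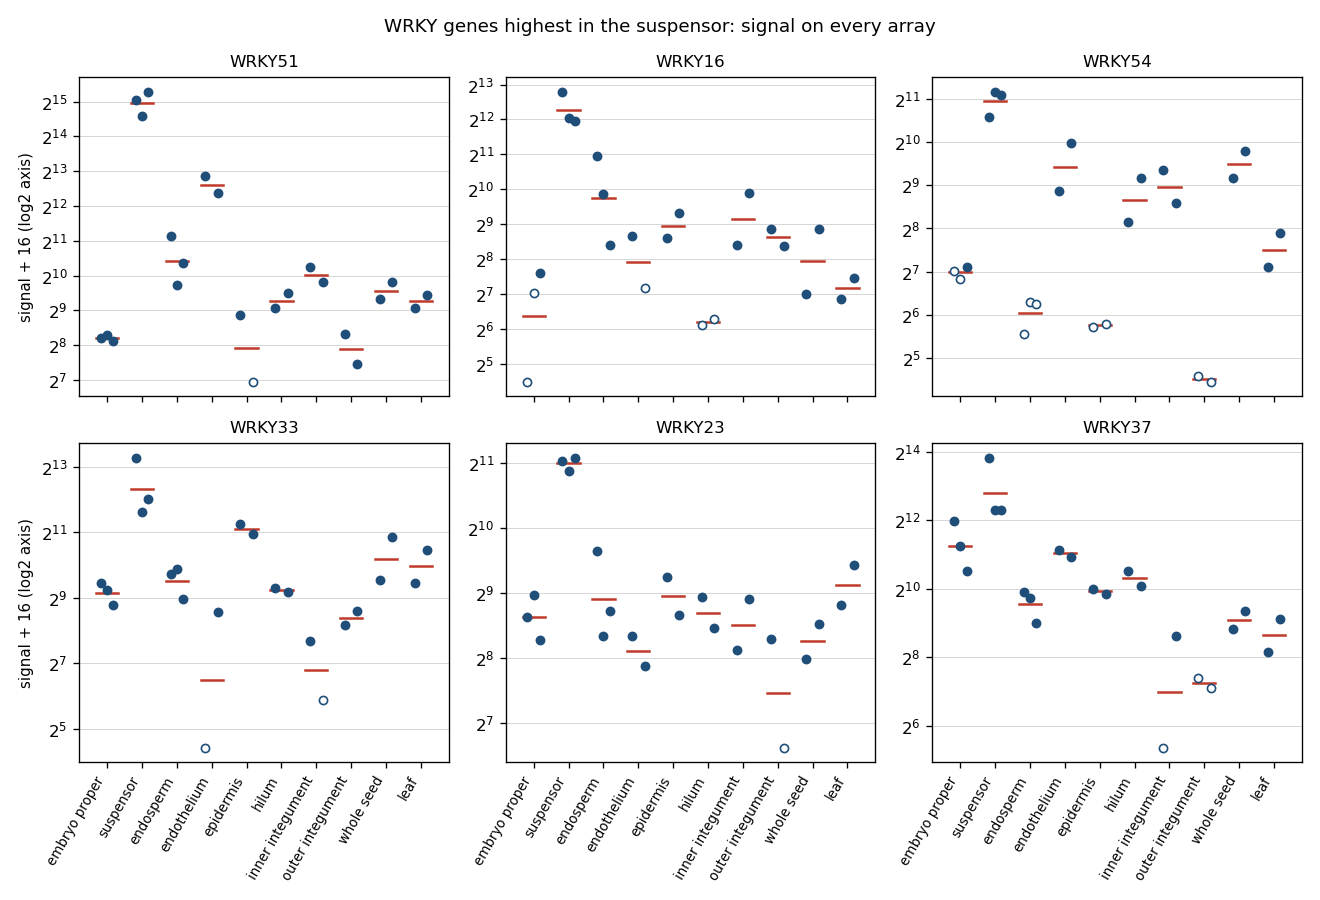
Signal + 16 on every array (log2 axis) of 6 WRKY genes whose highest captured compartment is the suspensor, by group. Filled points are above background and open points are not, and red lines are group means on the log2 scale. In all 6 panels the 3 suspensor points lie above the points of every other group.

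Another 8 members were called higher in the suspensor. WRKY37 read 14492, 5039.6 and 5012 in the suspensor and 4058, 2405 and 1463 in the embryo proper, and was 10.1-fold above the other 7 (log2 difference 3.34 ± 0.46, adjusted p = 8.5e-06). It did not pass the threshold against the embryo proper (adjusted p = 0.061) or the endothelium (adjusted p = 0.064). WRKY39 read 12694, 4245 and 2747 in the suspensor and 5417 and 3889 in the outer integument, which overlap, and was 8.34-fold above the other 7 (log2 difference 3.06 ± 0.65, adjusted p = 0.0011). For both genes the further probe sets varied: the 1 tested for WRKY37 was not called, and of the 3 for WRKY39 1 was called higher in the suspensor. WRKY50 was 5.02-fold higher (adjusted p = 1.7e-05), with 2594, 898 and 1662 in the suspensor and no value above 622 on any other array. WRKY14 was 4.78-fold higher (adjusted p = 0.00015) and read 3038, 843 and 1954, which overlapped with the hilum (1108 and 898). The remaining 4 were WRKY9, WRKY56, WRKY47 and WRKY10, with log2 differences of 1.97, 1.61, 1.38 and 1.15 and adjusted p of 0.022, 0.047, 0.008 and 0.011, and each overlapped with other groups. WRKY56 had passed the filter through the suspensor alone, so it was tested only because it was high there.

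WRKY41 went the other way. It read 75.3, 170.2 and 36.4 in the suspensor and was 3.93-fold lower there than in the other 7 (log2 difference -1.98 ± 0.42, adjusted p = 0.00099). Of the 10 further tested probe sets that belong to members called in the suspensor, 5 were called in the same direction and 5 had the same sign without a call.

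Only 4 members met a stricter rule, a level 4-fold or more over every other captured compartment with an adjusted p below 0.05 each time (3.68% of all tested probe sets met it in some compartment). WRKY51, WRKY16 and WRKY23 met it in the suspensor (1.34% of all) and WRKY32 in the endothelium (0.21%), the group through which alone it had passed the filter. With no filter on dim probe sets WRKY32 did not meet the rule and the other 3 did. The rule was met by members in no other compartment, where the shares of all tested probe sets were 0.35% for the embryo proper, 0.623% for the endosperm, 0.191% for the epidermis, 0.179% for the hilum, 0.44% for the inner and 0.346% for the outer integument. WRKY19 would have joined them through a dimmer probe set, chosen after its values were seen, that read 666.6, 1693 and 1610 in the suspensor and at most 60 on every other array. It was above background on the 3 suspensor arrays alone, so it passed the filter only because it was high there and adds no support. It was at least 6.90-fold higher there (log2 difference 5.46 ± 0.44), whereas the brightest WRKY19 probe set passed the background level on 1 array of 23. The specific members fell to 2 without epidermis replicate 1, without epidermis replicate 2 or without inner integument replicate 1, and WRKY51 was among them in each of these. WRKY23 also missed the rule with an offset of 64, with arrays scaled to equal medians, with quantile normalization and without endosperm replicate 2. WRKY16 also missed it with array weights and without endosperm replicate 3. With the mean of all probe sets of a gene only WRKY16 met the rule, and WRKY51, WRKY23 and WRKY32 did not. WRKY16 has only 1 probe set of its own, so this alternative left its values unchanged and was no check of it.

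Suspensor replicate 1, with its high background, was the highest of the 3 suspensor arrays for WRKY16, WRKY33, WRKY37, WRKY39, WRKY50, WRKY14, WRKY9 and WRKY56. It was not the highest for WRKY51, WRKY54, WRKY23, WRKY47 or WRKY10. Without suspensor replicate 1, 12 members were higher in the suspensor and 1 lower, 12 of the 14 calls were shared, and the median difference of the members was 0.32. The coat markers, of which 3 of 8 were above background on every suspensor array and 1 on none, were brighter in the suspensor than in the embryo proper, and their part in these differences was not tested.

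In the embryo proper few members were high. Only WRKY37 was higher there than in the other 7 compartments (2.96-fold, adjusted p = 0.015), and 9 of the 35 tested members were lower (19.2% of all tested probe sets called; 9.77% higher and 9.44% lower). WRKY52 read 178, 154 and 116 in the embryo proper, below every other captured array, and was 5.91-fold lower (log2 difference -2.56 ± 0.41, adjusted p = 7.3e-05). WRKY47 read 109, 189.7 and 312 and was 5.58-fold lower (log2 difference -2.48 ± 0.38, adjusted p = 4.4e-05), and WRKY16 was 6.14-fold lower (adjusted p = 0.0015). WRKY29 was not above background on any embryo proper array (4.1, 6.2 and 4.6) and was at least 1.19-fold lower (log2 difference -3.08 ± 0.49, adjusted p = 7.7e-05). The other 5 were WRKY27, WRKY51, WRKY39, WRKY32 and WRKY22, with log2 differences between -2.27 and -1.33. WRKY32 had been tested only because it was high in the endothelium. The WRKY37 call was lost without embryo proper replicate 1 (adjusted p = 0.15) and without replicate 2 (adjusted p = 0.064). It was also lost with the mean of all its probe sets (log2 difference 0.92, adjusted p = 0.15).

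Set directly against the suspensor, 14 of the 35 tested members were lower in the embryo proper and WRKY41 was higher (23.1% of all tested probe sets called, 12.7% higher and 10.4% lower). The median difference was -1.16 for the members and 0.07 for all tested probe sets. WRKY51 differed by 109-fold (log2 difference -6.77 ± 0.43, adjusted p = 4.7e-10), with 277, 296 and 265 in the embryo proper. Over the 33 alternatives its log2 difference lay between -6.96 and -3.84. WRKY16 (60.1-fold, adjusted p = 3.3e-06), WRKY39 (21.2-fold, adjusted p = 0.00048), WRKY54 (15.6-fold, adjusted p = 1.6e-06) and WRKY47 (10.4-fold, adjusted p = 2.1e-05) followed. WRKY33, WRKY52, WRKY23, WRKY27, WRKY29, WRKY50, WRKY14, WRKY10 and WRKY7 completed the list. WRKY27 and WRKY29 were above background on no array of either group, so their values there have no order. For WRKY10 the arrays of the embryo proper (224, 287.5 and 710.8) overlapped with those of the suspensor (970.7, 1523.4 and 696.3). WRKY41 was 3.84-fold higher in the embryo proper (349, 406 and 313; adjusted p = 0.011), a call that was lost without suspensor replicate 3 (adjusted p = 0.062). By comparison, 8 of 46 bZIP, 9 of 45 MYB and 3 of 11 NAC genes were lower in the embryo proper than in the suspensor.

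In the endosperm 3 of the 35 tested members were higher and 6 lower than in the other 7 compartments (22.4% of all tested probe sets called; 10.1% higher and 12.4% lower). WRKY52 led, with 4572, 2644 and 1636 in the endosperm and 1105, 1290.3 and 2003 in the suspensor, next below it. It was 4.22-fold above the other 7 (log2 difference 2.08 ± 0.41, adjusted p = 5e-04), and the suspensor was not separated from it (adjusted p = 0.22). WRKY7 read 2159, 1091 and 1692 and was 2.11-fold higher (adjusted p = 0.0037), a difference just over the 2-fold minimum. WRKY34 read 1013, 198 and 243, was higher (log2 difference 1.80 ± 0.57, adjusted p = 0.021), and was below background on both whole seed arrays (28.9 and 31.3). It had passed the filter through the endosperm alone, so it was tested only because it was high there.

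The low side of the endosperm was led by WRKY4. It read 120.2, 602 and 349.7 in the endosperm and between 1217 and 5149 on the other 17 arrays outside the endosperm and the suspensor, and was 6.37-fold lower (log2 difference -2.67 ± 0.48, adjusted p = 2e-04). WRKY39 read 671, 38.6 and 103 and was 6.36-fold lower (adjusted p = 0.0037). WRKY54, WRKY29 and WRKY50 were above background on no endosperm array, and WRKY47 was 2.12-fold lower (adjusted p = 0.035). For WRKY50 the difference was at least 1.74-fold (adjusted p = 0.0077), and for WRKY54 (adjusted p = 0.00041) and WRKY29 (adjusted p = 0.014) no fold can be given. Without endosperm replicate 1, the other array of high background, WRKY34 (adjusted p = 0.23) and WRKY7 (adjusted p = 0.043 but under 2-fold) were no longer called, and without replicate 2 WRKY39 (adjusted p = 0.074) and WRKY29 (adjusted p = 0.18) were not. The mean of all WRKY4 probe sets differed by -0.12 on the log2 scale (adjusted p = 0.83). That of WRKY39 differed by -0.55 (adjusted p = 0.38) and that of WRKY34 by 0.75 (adjusted p = 0.27), so these calls were lost too.

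In the endothelium 5 of the 35 tested members were higher and 1 was lower than in the other 7 compartments (8.65% of all tested probe sets called; 5.17% higher and 3.48% lower). WRKY32 read 1565 and 1030.4 there and between 21.6 and 613 on the other 21 arrays. It had passed the filter through the endothelium alone, so it was tested only because it was high there. It was above the other 7 (log2 difference 3.29 ± 0.60, adjusted p = 0.00077), at least 8.66-fold above the embryo proper and at least 8-fold above the outer integument. A second tested WRKY32 probe set was instead called in the inner integument (log2 difference 3.31), so the 2 probe sets of this gene place it in different coat layers. WRKY41 read 2574 and 1290.4 in the endothelium and 998 and 1203 in the epidermis. It was 7.41-fold above the other 7 (log2 difference 2.89 ± 0.50, adjusted p = 0.00045) and was not separated from the epidermis (adjusted p = 0.63).

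WRKY54 (4.05-fold, adjusted p = 0.003) and WRKY8 (196 and 163; adjusted p = 0.02) were the other endothelium genes beside WRKY51. WRKY8 was above background on 1 endothelium array, on 1 epidermis array and on no other captured array, so no fold is given for it. WRKY33 was lower (8.06-fold, adjusted p = 0.0041), but its 2 endothelium arrays read 5.2 and 363 and lay far apart. Without endothelium replicate 1 only 2 members were called, both higher, and WRKY33 (adjusted p = 0.65), WRKY41 (adjusted p = 0.068) and WRKY32 (adjusted p = 0.061) were not among them. Without replicate 2 WRKY54 was lost (adjusted p = 0.14).

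WRKY29 was called in the epidermis and in the hilum. It read 1702 and 1620.2 in the epidermis, 1363 and 2382 in the hilum and 1070.1 and 1193 in whole seed, and between 4 and 235 on the other 17 arrays. Only 1 of those other arrays, endothelium replicate 2, was above background. The epidermis (log2 difference 4.15 ± 0.58, adjusted p = 4.7e-05) and the hilum (log2 difference 4.28 ± 0.58, adjusted p = 4.3e-05) were above the other 7 compartments, a mean that in each case holds the other of this pair. In each case 3 of the 17 arrays of those 7 were above background, so the difference is one of deposited values and no fold is given. The hilum was at least 12.2-fold above the embryo proper, at least 11.3-fold above the outer integument and at least 7.35-fold above the endosperm, and was not separated from the epidermis (adjusted p = 0.98). The second WRKY29 probe set was called higher in both places too.

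In the epidermis 5 of the 35 tested members were higher and 2 lower (9.36% of all tested probe sets called; 5.39% higher and 3.97% lower). Beside WRKY29 these were WRKY33 (4.79-fold, adjusted p = 0.03), WRKY41 (4.17-fold, adjusted p = 0.0088), WRKY8 (193 and 119; adjusted p = 0.043) and WRKY10 (1034 and 1372; 2.68-fold, adjusted p = 0.022). WRKY51 was lower (455 and 107; 5.95-fold, adjusted p = 0.00012) and WRKY54 at least 1.36-fold lower (adjusted p = 0.0014). WRKY43, whose highest captured mean was in the epidermis, read 577 and 216 there and was not called. With epidermis replicate 1 left out 3 members were called, and with replicate 2 left out 2, and WRKY29 was called in both cases (its highest adjusted p over all alternatives was 0.0053). WRKY33 then had adjusted p of 0.29 and 0.19, WRKY41 of 0.095 and 0.16, and WRKY8 of 0.43 and 0.15, and WRKY51 was lost without replicate 2 (adjusted p = 0.053). The WRKY51 call was also lost with the mean of all its probe sets (log2 difference -1.05, adjusted p = 0.11). The WRKY8 call was lost in 14 of 33 alternatives.

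In the hilum 3 of the 35 tested members were higher and 2 lower (8.91% of all tested probe sets called; 4.95% higher and 3.96% lower). WRKY15 read 459.8 and 457 there, the highest values of this gene among captured arrays, and was 4.42-fold higher (adjusted p = 0.038). WRKY47 read 2810.1 and 1976 and was 2.97-fold higher (adjusted p = 0.027). WRKY16 was at least 3.67-fold lower (adjusted p = 0.0083), and WRKY56, above background on neither array (13 and 11.7), was lower (adjusted p = 0.044) with no fold to give. WRKY56 had been tested only because it was high in the suspensor, and it was not called with the mean of all its probe sets (adjusted p = 0.29). WRKY12 was also highest in the hilum (239.5 and 412) and was not called. Only WRKY29 was called when either hilum array was left out, and 3 members were called without embryo proper replicate 2, without endothelium replicate 1 or without outer integument replicate 2.

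**Figure D4:**
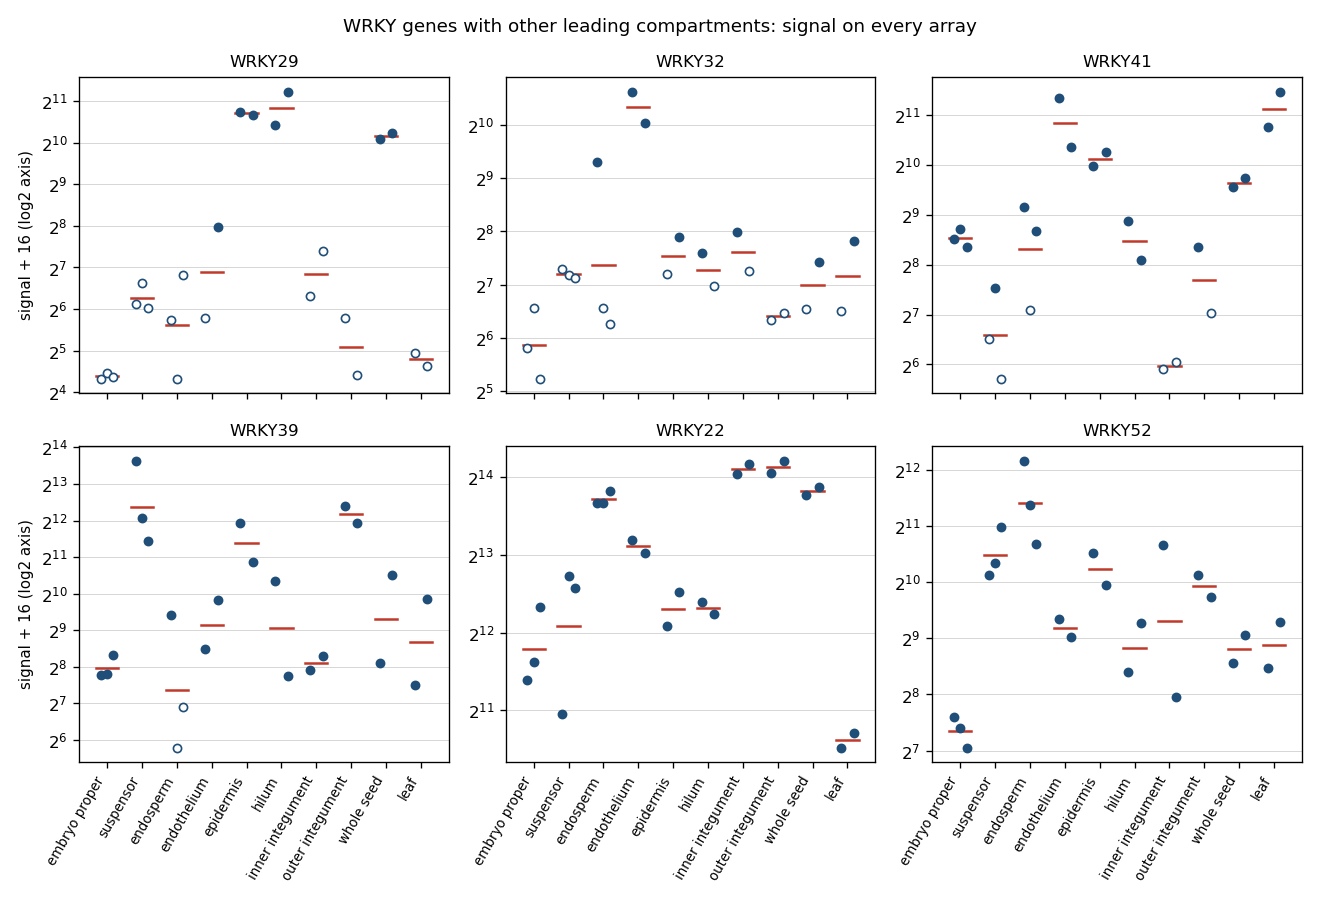
Signal + 16 on every array (log2 axis) of 6 WRKY genes with high values outside the suspensor, by group. Filled points are above background and open points are not, and red lines are group means on the log2 scale. WRKY29 stands out in the epidermis, hilum and whole seed, WRKY32 in the endothelium, and WRKY39 is high in the suspensor, the epidermis and the outer integument.

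In the inner integument 3 of the 35 tested members were higher and 6 lower than in the other 7 compartments (22.6% of all tested probe sets called; 9.81% higher and 12.8% lower). WRKY22 read 16834 and 18488 and was 2.51-fold higher (log2 difference 1.33 ± 0.31, adjusted p = 0.0027). With the mean of all its probe sets the log2 difference was 0.73 (adjusted p = 0.12) and the call was lost. WRKY54 read 639 and 367 and was 2.82-fold higher (adjusted p = 0.012), and WRKY59 read 1461 and 1927 and was 2.31-fold higher (adjusted p = 0.022). WRKY57 had its highest captured mean there too (199 and 289.8) and was not called.

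In the inner integument WRKY14 read 10.8 and 56.4, above background on neither array, and was at least 2.77-fold lower (log2 difference -3.80 ± 0.47, adjusted p = 3.3e-06). WRKY41, also above background on neither array (43.8 and 50.2), was at least 1.82-fold lower (adjusted p = 0.00033). WRKY37 read 24.6 and 375 (10-fold lower, adjusted p = 8.9e-05) and WRKY33 read 189.6 and 42.7 (6.39-fold lower, adjusted p = 0.0041), 1 array of each being above background. WRKY15 and WRKY10 were also lower (adjusted p = 0.037 and 0.02). With arrays scaled to equal medians 2 members were higher and 8 lower, and with quantile normalization 2 and 7. Without inner integument replicate 2 only 4 members were called, 1 higher and 3 lower, and WRKY22 (adjusted p = 0.059), WRKY59 (adjusted p = 0.24) and WRKY33 (adjusted p = 0.21) were lost, while WRKY54 (adjusted p = 0.19) and WRKY59 (adjusted p = 0.063) were lost without replicate 1.

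In the outer integument 3 of the 35 tested members were higher and 5 lower (9.36% of all tested probe sets called; 5.89% higher and 3.47% lower). WRKY22 was again high, at 17056 and 18960.2 (2.57-fold, adjusted p = 0.0049), and was not separated from the inner integument (adjusted p = 0.98). WRKY39 was 7.09-fold higher (log2 difference 2.83 ± 0.78, adjusted p = 0.02). WRKY27, the salt and drought tolerance gene, read 366 and 418 and between 9.8 and 334 on the other 21 arrays, and was higher than in the other 7 compartments (log2 difference 1.84 ± 0.55, adjusted p = 0.032), where 2 of 17 arrays were above background. WRKY58 read 239.7 and 232 and was not called.

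WRKY54 was at least 1.72-fold lower in the outer integument than in the other 7 (log2 difference -3.59 ± 0.42, adjusted p = 4e-06). WRKY37, also above background on neither array (152 and 121), was at least 7.64-fold lower (adjusted p = 0.00056), and WRKY29 at least 1.02-fold lower (adjusted p = 0.013). WRKY51 was 6.06-fold (adjusted p = 8.1e-05) and WRKY23 2.86-fold lower (adjusted p = 0.02). Without outer integument replicate 2 only 3 members were called, all lower, and WRKY22 (adjusted p = 0.13), WRKY27 (adjusted p = 0.32), WRKY39 (adjusted p = 0.16) and WRKY29 (adjusted p = 0.43) were lost. The first 3 of these were also lost without replicate 1 (adjusted p of 0.077, 0.23 and 0.27). With the mean of all probe sets of a gene the same genes were lost. WRKY22 then differed by 0.73 on the log2 scale (adjusted p = 0.23) and WRKY27 by 1.07 (adjusted p = 0.32). WRKY39 differed by 0.77 (adjusted p = 0.48) and WRKY29 by -1.59 (adjusted p = 0.093).

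The 5 maternal coat regions were also set together against the embryo proper, suspensor and endosperm, which arise from fertilization. Of the 35 tested members 5 were higher in the coat and 8 lower (21.5% of all tested probe sets called; 12.1% higher and 9.4% lower). WRKY29 was at least 1.34-fold higher in the coat (log2 difference 2.65 ± 0.36, adjusted p = 4.7e-06) and WRKY4 3.14-fold higher (log2 difference 1.65 ± 0.35, adjusted p = 0.00075), followed by WRKY8, WRKY32 and WRKY47, with WRKY8 above background on none of the 9 embryo and endosperm arrays and on 2 coat arrays. On the low side were WRKY37 (4.31-fold, adjusted p = 3.4e-05), WRKY33 (3.81-fold, adjusted p = 0.00066) and WRKY51 (3.14-fold, adjusted p = 1.3e-05), and also WRKY9, WRKY56, WRKY16, WRKY23 and WRKY34. WRKY9 read 568, 359 and 67.3 in the suspensor and was above background on no coat array. Of these 8 genes, 7 were among those higher in the suspensor, whose arrays enter this comparison, and the exception was WRKY34. The ranges of the 2 sides overlapped for all 13 members. WRKY56 had passed the filter through the suspensor alone, WRKY34 through the endosperm alone and WRKY32 through the endothelium alone. Each of them was tested only because it was high on the side where it was called, so these calls are no support. With the number of the replicate as a block WRKY32 was not called (log2 difference 0.72, adjusted p = 0.18), and with the mean of all probe sets of a gene 4 members were higher and 4 lower, WRKY4 no longer being called (adjusted p = 0.64).

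Whole seed was set against leaf, the 2 tissues that were ground and extracted alike. WRKY22, WRKY29, WRKY54 and WRKY47 were higher in whole seed, and no member was called higher in leaf by limma (13.2% of all tested probe sets called; 5.15% higher and 8.03% lower in whole seed). At an unadjusted p under 0.05, 7 members were higher and 3 lower (20% and 8.57% of the members, against 11.2% and 12.9% of all tested probe sets), and with array weights 6 were called higher and 3 lower. WRKY29 read 1070.1 and 1193 in whole seed and 15 and 8.7 in leaf, below background, a difference of at least 10.8-fold (log2 difference 5.37 ± 0.78, adjusted p = 5.8e-05). WRKY22 read 13914 and 15010.1 against 1446 and 1664 (9.23-fold, log2 difference 3.21 ± 0.41, adjusted p = 1.5e-05), and 2 of its 4 further tested probe sets were called higher in whole seed as well. With arrays scaled to equal medians 3 members were higher and 1 lower. WRKY54 read 564 and 877 against 122 and 224 (3.95-fold, adjusted p = 0.021), and WRKY47 746 and 3051 against 327 and 506 (3.61-fold, adjusted p = 0.042). The WRKY47 call was lost in 14 of 33 alternatives, and without whole seed replicate 2 its log2 difference was 0.85 (adjusted p = 0.62). Without leaf replicate 1 only WRKY29 and WRKY22 were called, as WRKY54 (adjusted p = 0.21) and WRKY47 (adjusted p = 0.26) were not.

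The 2 arrays of each ground tissue differed in a set of members, a pattern noticed after the values were seen. In whole seed 11 of the 35 tested members were at least 2-fold higher on replicate 2 than on replicate 1 and none was lower by as much, where 5.31% of all tested probe sets were higher and 3.63% lower. In leaf 8 members were higher on replicate 2 and none lower (6.4% and 3.67% of all tested probe sets). WRKY12, WRKY33, WRKY39, WRKY43, WRKY56, WRKY58 and WRKY60 were higher on replicate 2 in both tissues, which is 20% of the members and was true of 1.34% of all tested probe sets. WRKY43 read 123 and 2275 in whole seed and 355 and 1186 in leaf. WRKY39 read 259 and 1453 in whole seed and 164 and 912 in leaf. WRKY58 read 83.6 and 1237 in whole seed and 1943 and 3912 in leaf. For these genes the 2 replicates of a tissue lay further apart than for most probe sets, and no test was made of this.

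**Figure D5:**
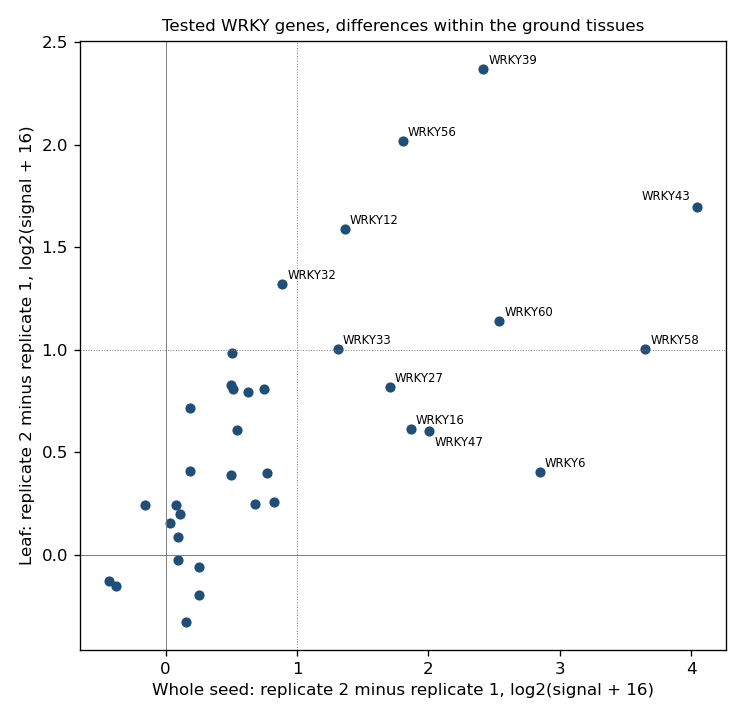
Difference between replicate 2 and replicate 1, in log2(signal + 16), of each of the 35 tested WRKY genes in whole seed (horizontal axis) and leaf (vertical axis). Dotted lines mark a 2-fold difference. The 7 genes beyond both lines are higher on replicate 2 in both tissues, and no gene is lower by 2-fold in either.

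Of the 35 tested members, 10 were called in none of the 8 comparisons of 1 compartment with the rest (28.6% of the members and 45% of all tested probe sets). WRKY24, WRKY35 and WRKY48 were above background on all 23 arrays. WRKY24 varied little, with group means between 1002 in leaf and 2581 in the endosperm. WRKY35 had group means between 900.4 in leaf and 2574 in the endothelium. Neither passed the F test (adjusted p = 0.45 and 0.14).

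WRKY48 read 9074, 7272 and 8484 in the embryo proper, its highest group, and 3482 and 4078 in the endothelium, its lowest captured group. Its 2 dimmer probe sets behaved differently, and both were higher in the seed coat than in the embryo and endosperm (log2 difference 3.28 with adjusted p = 3.6e-07, and 3.43 with adjusted p = 3.3e-08). The first of them read 53.3, 71 and 46.2 in the embryo proper and 2352 and 1239 in the endothelium. The probe sets of this gene therefore give opposite orders of these compartments, and the description of WRKY48 depends on which is used.

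The other 7 members without a call were dim in captured tissue. WRKY58 was above background on 10 of 23 arrays and was highest in leaf, and WRKY43 on 9. WRKY57 and WRKY12 were above background on 9 arrays, WRKY36 on 10, WRKY60 on 5 and WRKY6 on 3. WRKY12 (48.7, 229 and 329 in the suspensor) and WRKY43 passed the F test (adjusted p = 0.014 and 0.049), and the other 5 did not.

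Genes that act with WRKY factors in immunity were looked at beside them, from a list of 11 defence genes of which 8 were tested. None was called in the suspensor by limma (2 were higher and 1 lower at an unadjusted p under 0.05, which is 25% and 12.5%, against 16% and 22.6% of all tested probe sets). In the F test 4 of 8 were called (50%, against 52.6% of all tested probe sets). MPK4B, a mitogen-activated protein kinase, was 2.80-fold higher in the epidermis (adjusted p = 0.013) and 2.32-fold higher in the hilum (adjusted p = 0.045), and 5.91-fold lower in the inner integument (adjusted p = 2.6e-05). EDS1-2, a regulator of resistance signalling, was higher in the epidermis (log2 difference 2.87, adjusted p = 0.042), with 3 of the 17 other captured arrays above background. PAD4, a partner of EDS1 in Arabidopsis, was above background on neither inner integument array and lower there (adjusted p = 0.027), with no fold to give, and was at least 1.66-fold lower in the embryo proper than in the suspensor (adjusted p = 0.037). RAR1-1, a chaperone component of resistance protein complexes, was 2.14-fold higher in the embryo proper than in the suspensor (adjusted p = 0.0055). PR1-7, a pathogenesis-related protein, was at least 2.84-fold higher in leaf than in whole seed (adjusted p = 0.0027). It was above background on the leaf arrays alone, so it was tested only because it was high there, and this call is no support. MAPK2 was 2.08-fold higher in the embryo proper than in the other 7 compartments (adjusted p = 0.011).

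Members were also set side by side by the likeness of their group means on the log2 scale over the 10 groups, as a description. WRKY8 and WRKY41 were the most alike (Pearson's r = 0.87), both with their highest means in the endothelium, the epidermis and leaf. WRKY12 and WRKY54 followed (r = 0.85), then WRKY43 and WRKY8 (r = 0.82). WRKY16 was nearest to WRKY52 (r = 0.77), and WRKY33 to WRKY10 (r = 0.78). The annotation gives a further probe set to WRKY16 and WRKY52 together. Whether the probe set used for either gene also reads transcripts of the other was not tested. WRKY51 was nearest to WRKY54 (r = 0.76), and WRKY29 to WRKY47 (r = 0.76). Of these genes, WRKY8 was above background on only 4 arrays, WRKY29 on 7, and WRKY12 and WRKY43 on 9 each. Their correlations therefore rest in part on signals below background, which are not ordered. The 10 points of each correlation share arrays and amplification, and no p is given.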

How the data were processed

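Signals are linear intensities of the Affymetrix Soybean Genome Array, deposited by the authors as 1 column per sample; per the submitters' processing notes GCOS 1.3 was used, with the probe summarisation not given in the sources used here. The trimmed mean, leaving out 2% at each end, is 500.1 on every array. Probe sets were named from the platform annotation, and all 52 WRKY genes matched the RefSeq table of Glycine_max_v4.0 by gene ID. From the intensities, log2(signal + 16) was fitted with limma 3.58.1 in R 4.3.3 in 1 model of 10 groups with 13 residual degrees of freedom and a trended prior. Benjamini-Hochberg adjustment ran over the 25686 soybean probe sets that passed the background level throughout a group. A call needed an adjusted p under 0.05 and 2-fold. The fit was tested on simulated data. Values by array were given for up to 4 members per compartment with the widest margin over the next, and up to 4 per direction and comparison with the largest called fold; values of other members were added after they were seen. The members and lists were chosen with earlier results of these data known. Protein and promoter sequences were not used here, so sequence groups and W-boxes were not examined. Same-numbered replicates of different groups had a median correlation of 0.0066 (-0.13 to 0.26), so the numbers were not taken as pairs. The number of arrays limits the precision.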

Additional observations from a re-analysis of the deposited data

How the results depend on the processing

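The calls with the largest folds, up to 4 per direction and comparison, were recomputed under 33 alternatives, which gave 2112 values for 64 pairs of gene and comparison. The other calls were not followed in this way. The call was kept in 1984, lost in 128 and reversed in 0, and 30 pairs kept it throughout. Leaving out each array in turn gave 23 to 27 members in the F test, 7 to 11 for the embryo proper, 13 to 15 for the suspensor, 7 to 10 for the endosperm, 2 to 7 for the endothelium, 2 to 8 for the epidermis, 1 to 7 for the hilum, 4 to 10 for the inner and 3 to 8 for the outer integument. It gave 11 to 16 for the embryo proper against the suspensor, 9 to 14 for the coat, 2 to 5 for whole seed against leaf and 2 to 4 specific genes. With no filter the hilum had 3 members called. With array weights the hilum had 8, the inner integument 5, whole seed against leaf 9 (6 higher and 3 lower) and the specific genes were 2. With the mean of all probe sets of a gene the outer integument had 3, the coat 8 and the specific genes were 1. The cause of these changes was not tested. Choosing the brightest probe set among those tested, an alternative chosen after seeing the data, gave 15 members in the suspensor, 17 for the embryo proper against the suspensor and 5 specific genes. With the replicate number as a block the counts were 25 for the F test, 9 for the embryo proper, 15 for the suspensor, 7 for the endosperm, 6 for the endothelium, the epidermis and the hilum, 8 for both integuments, 15 for the embryo proper against the suspensor, 11 for the coat, 4 for whole seed against leaf and 4 specific genes. Scaling arrays to equal medians moved the median of all probe sets by -0.14 in the suspensor and by 0.22 for the embryo proper against the suspensor. Signals below background are not ordered.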

Other observations

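Probe sets that the annotation gives to more than 1 gene were not used for any member. There were 6 with a WRKY gene. The set shared by WRKY33 and WRKY13 had a mean signal of 1487 in the suspensor and 468.7 in the epidermis, and the set shared by WRKY49 and WRKY39 had 1563 in the suspensor and 391.8 in the outer integument. For both, the suspensor was the highest of the 10 groups. The set shared by WRKY16 and WRKY52 was highest in the epidermis, at 201.2, with 123.0 in the suspensor. The other 3 did not pass the filter on dim probe sets.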
